A study of Mus musculus with 20 samples.

Results

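The variable segments of the immunoglobulin kappa light chain were followed in RNA from the ileum of single mice. The segments were taken as all genes whose symbol begins with Igkv in a table of estimated counts per gene, which gave 160 of 35204 genes. Membership went by symbol and used no measured value, but this set of genes was chosen with earlier results of these data known. The study asked how a lack of dietary tryptophan changes gene expression in the ileum with and without an intact microbiota. Female C57BL/6 mice (strain label C57Bl6), 7 weeks old, were kept for 3 weeks on an amino acid control diet (CD) or the same diet without tryptophan (TDD). They either remained specific pathogen-free (SPF) or drank water with sucrose and a mixture of gentamycin, neomycin, metronidazole, vancomycin and ampicillin (ABX), which gave 4 groups of 5 mice: CD, TDD, CD+ABX and TDD+ABX. A piece of 0.5 cm of ileum was taken 2 cm from the caecum of each mouse, and poly-A RNA was sequenced. The piece held all layers of the wall, and the cage of each mouse was not given in the sources used here.

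A kappa light chain is made when a developing B cell joins 1 of many V segments to a J segment of the Igk locus, and the joined VJ exon is spliced to the constant region exon of Igkc. Each B cell and its progeny keep that choice, so that a clone carries its V segment as a label. In the intestine most antibody messenger RNA is made by plasma cells of the lamina propria that secrete IgA, whereas Peyer's patches and smaller follicles hold B cells with far less antibody RNA per cell.

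The coding part of the V exon, where the segments differ, is shown for pairs that carry the results. It was read from the GENCODE M21 transcripts of build GRCm38, 5′ to 3′ on the strand of the gene, and is cut to its last 300 bases where it is longer. Capitals mark every base that differs from the partner named beside it, the place where reads of one segment can be told from those of the other. Igkv1-110 and Igkv1-117 were the most abundant segments over the 20 mice and differed at 10 of 313 aligned bases (96.8% identity).
Igkv1-110 (chr6:68270968-68271267, plus strand): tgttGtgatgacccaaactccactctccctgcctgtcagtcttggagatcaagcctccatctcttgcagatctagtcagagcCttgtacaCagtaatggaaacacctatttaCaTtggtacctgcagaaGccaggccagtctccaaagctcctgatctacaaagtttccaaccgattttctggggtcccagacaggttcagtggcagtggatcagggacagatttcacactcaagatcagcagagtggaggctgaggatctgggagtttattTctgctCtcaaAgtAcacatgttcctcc
Igkv1-117 (chr6:68121528-68121827, plus strand): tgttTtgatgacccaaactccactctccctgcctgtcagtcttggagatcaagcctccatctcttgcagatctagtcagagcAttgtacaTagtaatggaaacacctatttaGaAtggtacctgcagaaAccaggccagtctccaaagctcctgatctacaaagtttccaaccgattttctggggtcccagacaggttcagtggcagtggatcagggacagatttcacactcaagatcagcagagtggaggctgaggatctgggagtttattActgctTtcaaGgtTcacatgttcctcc
The Igkv10-96 and Igkv10-94 segments were the largest of some antibiotic-treated mice only, and differed at 16 of 298 bases.
Igkv10-96 (chr6:68631963-68632260, minus strand): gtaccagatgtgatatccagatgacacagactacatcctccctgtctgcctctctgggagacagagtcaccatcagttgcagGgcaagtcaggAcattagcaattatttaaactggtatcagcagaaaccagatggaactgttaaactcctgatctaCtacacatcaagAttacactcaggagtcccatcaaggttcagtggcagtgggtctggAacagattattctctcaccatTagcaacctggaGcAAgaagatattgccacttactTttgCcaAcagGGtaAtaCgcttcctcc
Igkv10-94 (chr6:68704508-68704805, minus strand): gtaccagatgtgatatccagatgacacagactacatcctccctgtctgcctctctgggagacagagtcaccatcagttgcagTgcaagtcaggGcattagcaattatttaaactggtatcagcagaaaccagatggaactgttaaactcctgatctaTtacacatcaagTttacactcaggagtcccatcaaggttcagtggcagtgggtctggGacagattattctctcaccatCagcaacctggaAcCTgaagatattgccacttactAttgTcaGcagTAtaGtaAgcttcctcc
Igkv4-61 was lower, and Igkv4-59 higher, in TDD than in CD mice, and the pair differed at 18 of 303 bases.
Igkv4-61 (chr6:69416893-69417192, minus strand): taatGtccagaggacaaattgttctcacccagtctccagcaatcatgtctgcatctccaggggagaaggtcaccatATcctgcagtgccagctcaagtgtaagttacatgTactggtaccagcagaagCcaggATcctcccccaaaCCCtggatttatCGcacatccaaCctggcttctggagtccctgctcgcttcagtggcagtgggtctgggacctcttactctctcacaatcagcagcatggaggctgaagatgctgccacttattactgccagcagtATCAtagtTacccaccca
Igkv4-59 (chr6:69438218-69438517, minus strand): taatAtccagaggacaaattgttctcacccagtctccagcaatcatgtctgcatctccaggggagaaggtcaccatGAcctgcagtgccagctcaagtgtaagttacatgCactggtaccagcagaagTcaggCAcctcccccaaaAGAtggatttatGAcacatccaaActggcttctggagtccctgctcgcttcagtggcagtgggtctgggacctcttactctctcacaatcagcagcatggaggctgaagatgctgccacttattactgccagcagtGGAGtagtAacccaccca
Igkv3-3 was found at more than 1 CPM (counts scaled to a library size adjusted by TMM factors) in TDD mice alone, and is shown with Igkv3-4, the segment with which it shared the most stretches of 31 bases. The pair differed at 19 of 310 bases.
Igkv3-3 (chr6:70687235-70687534, plus strand): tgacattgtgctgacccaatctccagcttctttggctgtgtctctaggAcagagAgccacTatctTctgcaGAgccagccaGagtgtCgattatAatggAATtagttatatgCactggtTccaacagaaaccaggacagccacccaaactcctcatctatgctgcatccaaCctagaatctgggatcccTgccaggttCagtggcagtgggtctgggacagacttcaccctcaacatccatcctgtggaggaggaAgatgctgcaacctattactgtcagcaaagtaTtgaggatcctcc
Igkv3-4 (chr6:70672078-70672377, plus strand): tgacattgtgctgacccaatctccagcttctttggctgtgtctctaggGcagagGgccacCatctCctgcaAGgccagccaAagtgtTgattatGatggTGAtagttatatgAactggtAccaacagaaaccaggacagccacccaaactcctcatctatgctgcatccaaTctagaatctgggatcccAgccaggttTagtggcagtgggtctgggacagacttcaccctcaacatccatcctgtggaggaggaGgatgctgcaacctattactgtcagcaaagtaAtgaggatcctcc

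The libraries held 36676963 to 58662617 estimated counts each, of which the Igkv segments made up between 0.0242% and 0.0964%. Epithelial markers of the ileum piece were abundant, with Vil1 at 2491 to 5132 CPM, whereas the ileal bile acid binding protein Fabp6 ranged from 0.238 to 144 CPM. Of 8 genes of ileal enterocytes, 3 were called higher under ABX on each diet, Fabp6 (log2 fold change 5.14 on CD and 3.92 on TDD), Slc10a2 (4.07 and 2.65) and Fabp2 (1.20 and 1.22). Of 6 T cell genes, 4 were called lower under ABX on CD (Trac, Cd8a, Cd3e and Cd3g, from -2.11 to -1.40) and 1 on TDD (Trac), and their summed level was 32.9 to 95.6 CPM in CD, 18.3 to 23.7 CPM in CD+ABX, 27.9 to 44.5 CPM in TDD and 16.8 to 30.6 CPM in TDD+ABX. Of all genes tested, 0.607% were called higher and 1.69% lower under ABX on CD, and 0.374% higher and 1.29% lower on TDD. No gene of either list was called between the diets, and the part of both lists in the Igkv results was not tested. B cell markers split the libraries, unevenly over the groups, with 2 of 5 CD, 4 of 5 TDD, 0 of 5 CD+ABX and 1 of 5 TDD+ABX mice on the high side. The sum of 9 B cell markers was 87.8 to 195 CPM in 7 mice (CD replicates 2 and 3, TDD replicates 2, 3, 4 and 5, and TDD+ABX replicate 5) and 5.20 to 31.9 CPM in the other 13, and none of the 9 was at 0 in any library. By group it ranged from 8.58 to 126 CPM in CD, from 7.28 to 195 CPM in TDD, from 5.20 to 11.1 CPM in CD+ABX and from 5.95 to 136 CPM in TDD+ABX. The 7 mice with a sum of at least 50 CPM are called the mice with high B cell markers. Markers of follicle stroma and follicle epithelium moved with them, at 95.3 to 160 CPM in the 7 mice and 34.6 to 65.8 CPM in the others. Cr2 belongs to both lists, at 9.22 to 23.4 CPM in the 7 mice and at most 3.42 CPM in the others, so the sums are not independent. Of the 9 B cell markers, 0 were called between any groups by edgeR's quasi-likelihood test, the lowest adjusted p being 0.0641 for Blk under ABX on CD, where all 9 had an unadjusted p under 0.05. Their part in the results was not tested other than by leaving out these 7 mice or by adding the B cell marker level as a covariate, both chosen after the values were seen. In whole tissue, fewer cells of a type and less RNA per cell cannot be told apart.

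Summed over all segments, Igkv RNA was highest in 4 of the 5 TDD mice and mostly lower in the antibiotic-treated groups. All values by mouse are given in the order of replicates 1 to 5. The summed level was 428, 595, 474, 371 and 423 CPM in CD mice, a mean of 458 ± 84.9 (SD, n = 5). In TDD mice it was 278, 963, 763, 822 and 755 CPM, a mean of 716 ± 259 (SD, n = 5). TDD replicate 1 was thus below every CD mouse and the other four were above every CD mouse, so the groups overlapped through this mouse alone. CD+ABX mice held 234, 294, 358, 261 and 370 CPM (mean 303 ± 59.3, SD), and TDD+ABX mice held 375, 399, 395, 242 and 312 CPM (mean 345 ± 67.3, SD). With TMM scaling every CD+ABX mouse was below every CD mouse by a narrow margin (highest CD+ABX mouse 369.5, lowest CD mouse 371.0), whereas without TMM factors the groups overlapped (368.7 and 355 CPM). Both antibiotic-treated groups overlapped each other. A sum over the members was given no test.

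In SPF mice the summed Igkv level moved with the B cell markers. Among the mice with high B cell markers, the summed Igkv level was 474 and 595 CPM in the 2 CD mice and 755 to 963 CPM in the 4 TDD mice. Among those below, it was 371 to 428 CPM in 3 CD mice and 278 CPM in the single TDD mouse. The ratio of the TDD to the CD mean was 1.56 over all mice and 0.683 without the 7 mice with high B cell markers, and the ratio of TDD+ABX to TDD was 0.481 over all mice and 1.27 without them. The ratio of CD+ABX to CD kept its direction, at 0.662 and 0.744. TDD+ABX replicate 5, the antibiotic-treated mouse with high B cell markers (136 CPM), had a summed Igkv level of 312 CPM, within the range of its group. A sum of 10 plasma cell markers split the SPF mice in a similar way. It was 784 and 957 CPM in the 2 CD mice with high B cell markers and 1035 to 1210 CPM in the 4 TDD mice. In the other SPF mice it was 701 to 762 CPM in CD and 807 CPM in TDD. TDD+ABX replicate 5 had 666 CPM. Which of these cells the Igkv level followed was not tested.

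**Figure D1:**
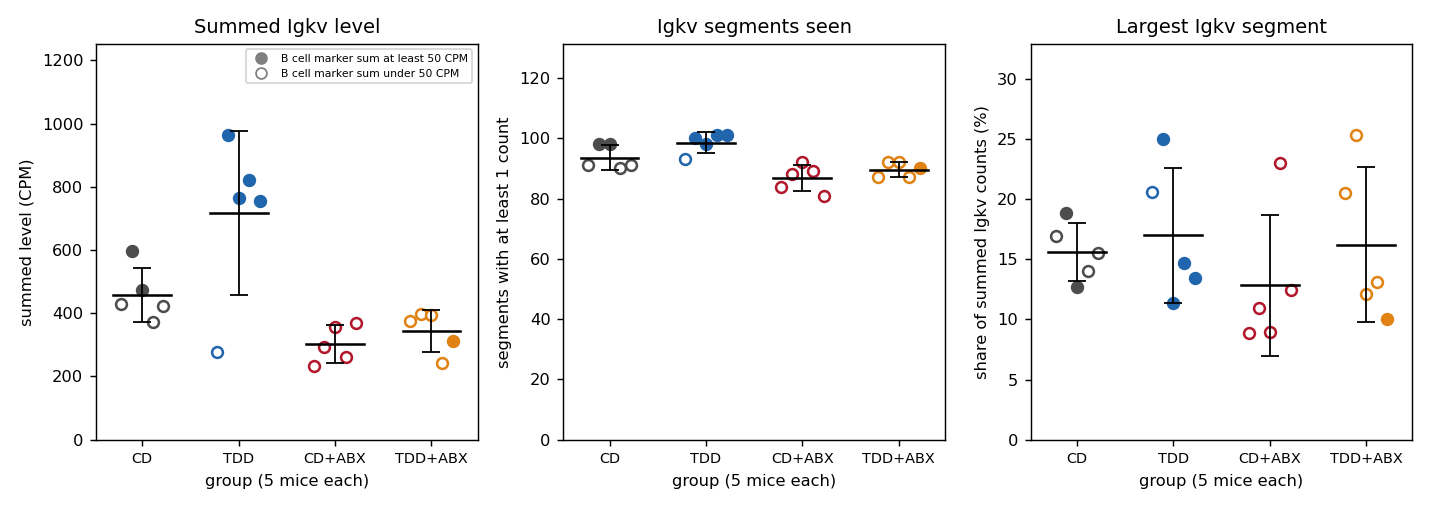
Summed Igkv level in CPM, number of Igkv segments with at least 1 count and share of the largest segment in percent, for the 5 mice of each group (points), with mean and SD (lines and bars). Filled points are mice with a B cell marker sum of at least 50 CPM, and the 4 filled TDD mice lie between 755 and 963 CPM in the first panel while the open TDD mouse lies at 278 CPM.

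The constant region and the partners of kappa chains were read from the same fit. Igkc, which every kappa chain shares, was at 961, 1349, 1036, 854 and 821 CPM in CD mice and at 760, 1630, 1597, 1663 and 1416 CPM in TDD mice, and the difference did not pass the test (log2 fold change 0.49, SE 0.20, adjusted p = 0.1002). It was at 455, 571, 735, 497 and 777 CPM in CD+ABX mice and at 703, 708, 707, 521 and 621 CPM in TDD+ABX mice. All CD+ABX values were below all CD values, and all TDD+ABX values were below all TDD values. Igkc fell under ABX on TDD by 1.12 on the log2 scale (SE 0.20, adjusted p = 0.00175), and on CD it was lower at adjusted p = 0.0199 but with a log2 fold change of -0.73, under the 2-fold limit used for a call. On CD this lost significance without the 7 mice with high B cell markers (-0.53). On TDD that fit leaves 1 TDD mouse, replicate 1, the lowest of its group for Igkc, and the value was -0.21. The ratio of summed Igkv to Igkc was 0.366 to 0.591 over the 20 mice.

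Of 35 light chain and antibody genes, 26 were tested. In SPF mice 2 of them rose on TDD, the joining segment Igkj2 (log2 fold change 1.14, adjusted p = 0.0115) and the lambda segment Iglv2 (1.64, adjusted p = 0.0305). In antibiotic-treated mice 1 rose on TDD, the IgG2c constant region Ighg2c (1.98, adjusted p = 0.0275). Of all genes, 0.846% and 0.159% rose in these comparisons. Under ABX on CD 6 fell and 0 rose, against 1.69% of all genes that fell, and under ABX on TDD 13 fell and 0 rose, against 1.29%. The latter included the IgA constant region Igha (-1.05, adjusted p = 0.00265) and Jchain, which joins IgA into dimers (-1.05, adjusted p = 0.00229). Both are plasma cell products. Their median log2 fold change was 0.69 for TDD in SPF mice, 0.47 for TDD in antibiotic-treated mice, -0.93 for ABX on CD and -1.14 for ABX on TDD. Of 10 plasma cell markers, 0 rose and 0 fell in either diet comparison, 1 fell under ABX on CD (Irf4, a transcription factor of plasma cells) and 3 fell under ABX on TDD (Irf4, Jchain and Mzb1). Others passed the adjusted p alone, below the 2-fold limit. On TDD in SPF mice Xbp1 (log2 fold change 0.38), Derl3 (0.82), Mzb1 (0.86) and Jchain (0.66) were higher, with adjusted p from 0.00218 to 0.0261. Derl3 was lower under ABX on TDD (-0.92, adjusted p = 0.00542), and Eaf2 under ABX on CD (-0.58, adjusted p = 0.0170). In the opposite direction to Irf4, the surface marker Sdc1 was higher under ABX on CD (0.40, adjusted p = 0.00301) and on TDD (0.40, adjusted p = 0.00326), as was Xbp1 under ABX on CD (0.38, adjusted p = 0.00283). Which cells of the whole tissue made the Sdc1 and Xbp1 RNA was not tested. In each antibiotic comparison 6 of the 10 markers had an adjusted p under 0.05. Their median log2 fold change was -0.50 on CD and -0.69 on TDD. Kappa dominated lambda throughout, with 82.5% to 96.6% of the summed kappa and lambda V counts per mouse.

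The mean number of segments seen was highest in TDD mice (98.6 ± 3.36, SD), before CD (93.6 ± 4.04), TDD+ABX (89.6 ± 2.51) and CD+ABX mice (86.8 ± 4.32). With 1 estimated count as the limit, 91, 98, 98, 90 and 91 of the 160 were seen in CD mice and 93, 100, 98, 101 and 101 in TDD mice. In CD+ABX mice 84, 88, 92, 89 and 81 were seen, and in TDD+ABX mice 87, 92, 92, 87 and 90. Nearly all TDD values thus lay at or above the highest CD value of 98, the exception being replicate 1, and the antibiotic-treated mice overlapped the lower CD mice. The number moved with the depth of Igkv reads and, in SPF mice before thinning, with B cell markers. When every mouse was thinned by calculation to the lowest summed Igkv count (10609), the expected number was 88.8 ± 2.80 in CD, 90.8 ± 1.32 in TDD, 84.5 ± 3.70 in CD+ABX and 86.4 ± 2.52 in TDD+ABX (mean and SD, n = 5). In SPF mice with high B cell markers, 98 to 101 segments were seen before thinning, against 90 to 93 in the other SPF mice. After thinning, TDD replicate 1, with low B cell markers, had the highest expected number of all mice (92.6). In CD, replicates 2 and 3, with high B cell markers, stayed above the others (91.3 and 91.9 against 85.5 to 88.2). TDD+ABX replicate 5, also with high B cell markers, had 90 segments seen, within the range of its group.

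Of the 160 segments, 100 are annotated as functional V genes and 60 as pseudogenes. All functional segments had a count in at least 1 mouse, 66 segments had one in every mouse, and the 35 without any count were all pseudogenes. The filter for the test (0.5 CPM in at least 1 mouse) kept 89, made up of 88 functional segments and the pseudogene Igkv2-116. Among the 71 left out, 36 had a few counts. Pseudogenes together had 1 to 63 counts per mouse, with the most in TDD mice (15 to 63) and at most 18 in the mice of the other groups. As shares of the Igkv counts the groups overlapped, with 0.0338% to 0.270% in TDD and 0.00618% to 0.0919% in the others. Igkv2-116 held 25 of the 30 counts in TDD replicate 1 and 42 of the 63 in TDD replicate 3. It shared 141 of its 332 stretches of 31 bases with the functional segment Igkv2-109.

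The 10 largest segments of a mouse together held 52.1% to 77.7% of its Igkv counts. Igkv1-110 or Igkv1-117, the family 1 pair printed above, was the largest segment in 15 of 20 mice. The share of the largest segment was 17.0%, 18.8%, 12.7%, 14.0% and 15.6% in CD mice and 20.6%, 25.0%, 11.3%, 14.7% and 13.4% in TDD mice, and it was 1 of this pair in all 10. Of the TDD+ABX mice, 4 were led by the pair, with 25.3%, 12.2%, 13.1% and 10.001% in replicates 2 to 5, and replicate 1 by Igkv8-30 with 20.5%. The CD+ABX mice differed among themselves. Replicate 1 was led by Igkv1-110 with 8.90%, replicates 2 and 4 by Igkv10-96 with 10.9% and 23.0%, replicate 3 by Igkv5-43 with 8.95% and replicate 5 by Igkv10-94 with 12.4%. The ranges of all 4 groups overlapped, so the share of the largest segment did not separate them, while its identity varied most in CD+ABX.

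These shares are of counts and do not allow for segment length. Per length, as shares of the summed TPM, the transcript level scaled by length that the authors deposited, the same segment was largest in 18 of 20 mice, and in the other two (CD+ABX replicate 1 and TDD+ABX replicate 5) it was Igkv15-103 and Igkv4-55. By mean TPM, Igkv1-110 (343 TPM) stood first, then Igkv1-117 (247 TPM), Igkv10-96 (183 TPM), Igkv5-43 (101 TPM), Igkv6-15 (97.6 TPM), Igkv14-111 (84.9 TPM), Igkv1-135 (76.4 TPM) and Igkv8-30 (76.4 TPM). The effective number of segments, the inverse of the summed squared shares, was lowest in TDD+ABX replicate 2 (7.23) and replicate 1 (9.53) and highest in CD+ABX replicate 3 (27.1).

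**Figure D2:**
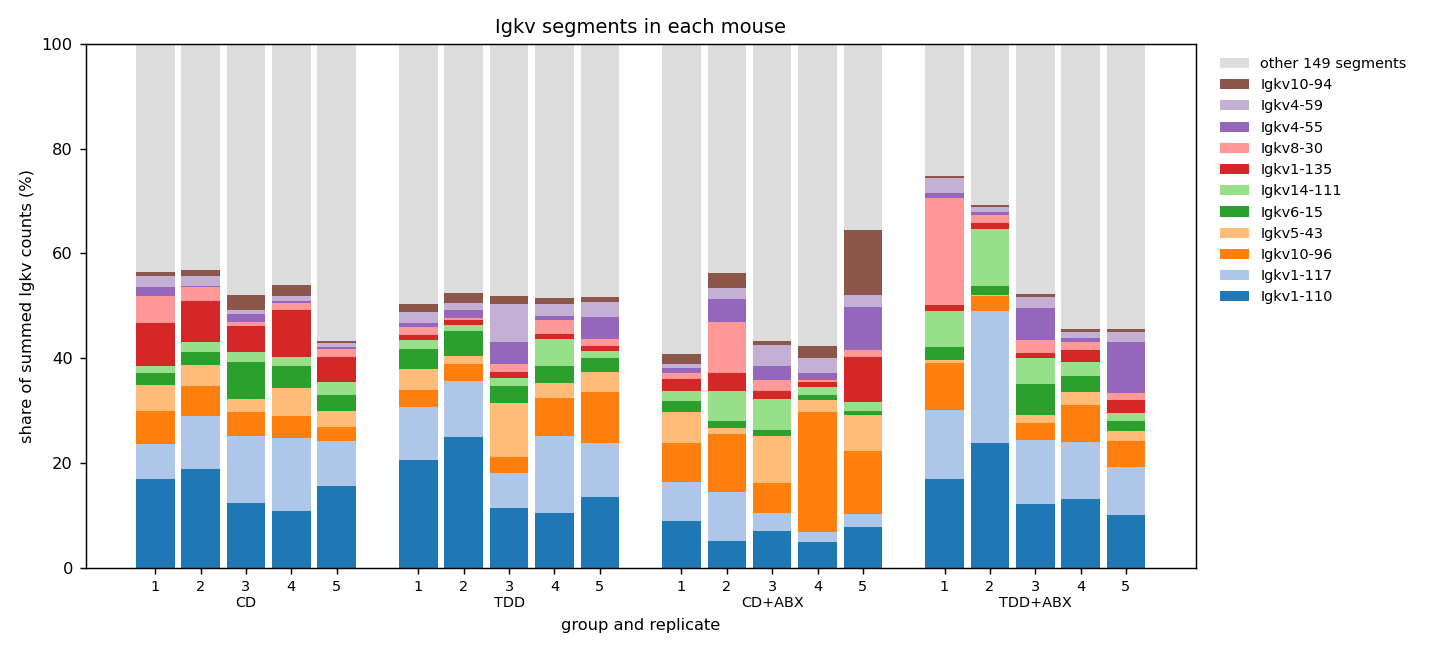
Share of the summed Igkv counts in percent held by the 10 most abundant segments, by Igkv10-94 and by all other segments, as stacked bars for each mouse. The lower 2 blocks, Igkv1-110 and Igkv1-117, are narrow in the 5 CD+ABX mice and wide in TDD+ABX replicate 2.

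The 13 segments of family 1 together made up 32.7% ± 3.12 of the counts in CD, 30.3% ± 10.3 in TDD, 15.4% ± 4.95 in CD+ABX and 31.3% ± 11.1 in TDD+ABX (SD, n = 5). In CD+ABX mice the share was 8.16% to 19.3%, below every CD mouse (29.4% to 37.3%) and every TDD+ABX mouse (22.2% to 50.4%). It was the largest family in 16 of 20 mice. Families 4 and 10 took larger shares in CD+ABX, with 16.7% ± 1.75 for family 4 against 10.5% ± 0.924 in CD, and 15.8% ± 8.63 for family 10 against 6.21% ± 1.83. They were not alone, as family 15 had 5.22% ± 3.35 in CD+ABX against 0.763% ± 0.179 in CD, and family 17 had 4.24% ± 2.10 against 2.12% ± 0.672. Families 4 and 15 did not overlap between CD and CD+ABX, and families 10 and 17 did. Shares of 1 mouse sum to 100%, so that the families are not independent of one another. CD and CD+ABX differ in B cell markers in 2 CD mice, and the 3 CD mice with low sums had family 1 shares of 29.4% to 34.2%. The part of the B cell markers in the family shares was not tested.

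On TDD in SPF mice, 9 of the 89 tested segments rose and 3 fell, against 0.846% of all 16306 genes tested that rose and 0.993% that fell. A segment was called when its adjusted p over all genes tested was under 0.05 and its level changed at least 2-fold. To be tested, it had to reach 0.5 CPM in at least 1 mouse. Igkv3-3, Igkv2-116 and Igkv20-101-2 did so in TDD mice alone, so a call lower on TDD was hardly open to them. The median log2 fold change was 0.79 over the tested segments and 0.0135 over all genes. For 5 of the called segments the groups did not overlap, as for 1.05% of all genes, and these 5 are described first.

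Igkv3-3 and Igkv7-33 rose from levels at or near 0. Igkv3-3, which lies 38.9 kb from Igkc at chr6:70686946-70687534, had 0, 0, 0, 0.0459 and 0.105 CPM in CD mice and 5.14, 3.30, 2.15, 4.76 and 1.05 CPM in TDD mice. Every TDD mouse exceeded every CD mouse, and TDD replicate 1, with low B cell markers, was the highest (log2 fold change 6.58, SE 0.78, adjusted p = 3.44e-05). The same segment was at 0 to 0.123 CPM in CD+ABX and at 0 to 0.10 CPM in TDD+ABX. Igkv7-33 had 0.165, 0.0931, 0.120, 0.0459 and 0.0211 CPM in CD mice and 4.77, 1.67, 1.12, 4.62 and 9.18 CPM in TDD mice, again without overlap (log2 fold change 5.58, SE 0.94, adjusted p = 0.000693). Among antibiotic-treated mice Igkv7-33 stayed at or under 0.124 CPM except in TDD+ABX replicate 3, which had 1.34 CPM.

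Igkv4-61, Igkv1-135 and Igkv5-48 fell. Igkv4-61 went from 8.79, 10.6, 11.2, 7.32 and 3.73 CPM in CD mice to 0.176, 1.10, 1.72, 1.05 and 1.77 CPM in TDD mice. It fell by 2.82 on the log2 scale (SE 0.64, adjusted p = 0.00633). Igkv1-135, of family 1, went from 35.3, 47.0, 23.4, 33.5 and 20.6 CPM to 2.38, 7.75, 8.99, 7.73 and 6.61 CPM. The lowest CD mouse thus had more than any TDD mouse, and the log2 fold change was -2.25 (SE 0.51, adjusted p = 0.00622). Igkv5-48 had 26.8, 30.1, 24.4, 15.5 and 12.3 CPM in CD mice and 3.59, 5.27, 3.11, 6.0 and 8.29 CPM in TDD mice (log2 fold change -2.05, SE 0.41, adjusted p = 0.00261). Levels of these 3 segments were lowest or nearly so in TDD replicate 1 and no higher in the 4 TDD mice with high B cell markers than 8.99 CPM, while the summed Igkv level of those 4 mice was the highest of all. All 5 segments stayed called whichever mouse was left out and with the B cell marker level as a covariate. Without the 7 mice with high B cell markers, which leaves 1 TDD mouse, Igkv3-3 (6.51, adjusted p = 0.0176) and Igkv7-33 (5.99, adjusted p = 0.0478) stayed called, and Igkv4-61 (-5.21), Igkv1-135 (-3.64) and Igkv5-48 (-2.34) were no longer called, with adjusted p from 0.119 to 0.156.

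The other 7 called segments rose in TDD with groups that overlapped: Igkv4-59, Igkv15-103, Igkv2-112, Igkv4-86, Igkv2-116, Igkv20-101-2 and Igkv1-99. Several rested on single mice. Igkv1-99 had 84.2 CPM in TDD replicate 2 and at most 0.579 CPM in any other mouse, and it was not called without that mouse or without CD replicate 5, with log2 fold changes from -1.34 to 7.22 over the fits that left out 1 mouse (6.30 over all mice). Igkv20-101-2 had 2.40 CPM in TDD replicate 3 and at most 0.0719 CPM elsewhere, and without that mouse it no longer passed the filter. It was also not called without CD replicate 1, 3, 4 or 5, with values from 5.87 to 7.54 over the other fits. Igkv15-103 had 46.4 CPM in TDD replicate 2 and was not called without it, with a log2 fold change of 1.36 in place of 2.23. Without the 7 mice with high B cell markers the direction of Igkv15-103 was reversed (-0.09, adjusted p = 0.958). Igkv4-59, printed above beside Igkv4-61, had 9.40, 10.8, 3.37, 3.40 and 2.91 CPM in CD mice and 6.17, 13.7, 55.1, 18.8 and 21.6 CPM in TDD mice (log2 fold change 1.96, SE 0.57, adjusted p = 0.0260). It was not called without CD replicate 3, 4 or 5 or without TDD replicate 3, and its value lay between 1.33 and 2.28 over the 20 fits that left out 1 mouse. Igkv2-112, just under the threshold (adjusted p = 0.0488), was not called in 13 of these fits, with values from 2.20 to 4.04.

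**Figure D3:**
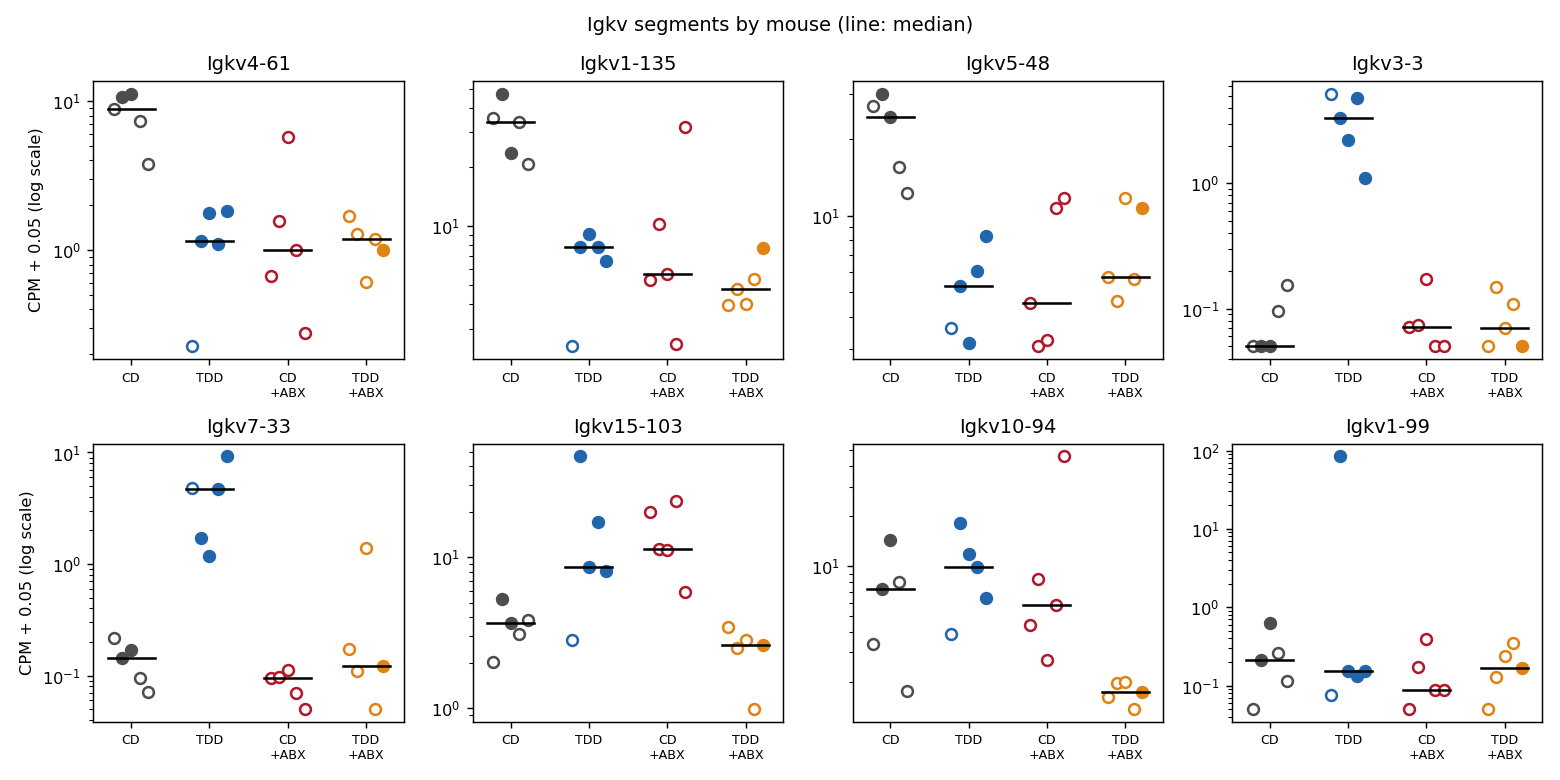
Levels of 8 Igkv segments in every mouse, as CPM plus 0.05 on a log scale, by group, with the median as a line and filled points for mice with a B cell marker sum of at least 50 CPM. By median, Igkv4-61, Igkv1-135 and Igkv5-48 are highest in CD, Igkv3-3 and Igkv7-33 are highest in TDD, and Igkv1-99 is high in 1 TDD mouse at 84.2 CPM.

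On TDD in antibiotic-treated mice, 1 of 89 tested segments rose and 2 fell, against 0.159% of all genes that rose and 0.172% that fell, and the median log2 fold change was 0.0085 over the segments and -0.0030 over all genes. The 2 that fell had groups that did not overlap, as did 0.288% of all genes. Igkv10-94 had 4.32, 8.25, 2.64, 5.76 and 45.9 CPM in CD+ABX mice and 1.57, 1.92, 1.94, 1.31 and 1.68 CPM in TDD+ABX mice (log2 fold change -2.99, SE 0.71, adjusted p = 0.0383). Igkv15-103 had 19.9, 11.3, 11.1, 23.5 and 5.85 CPM in CD+ABX mice and 3.39, 2.44, 2.77, 0.935 and 2.56 CPM in TDD+ABX mice (log2 fold change -2.57, SE 0.58, adjusted p = 0.0290). Igkv1-117 rose from 17.6, 27.8, 12.8, 4.91 and 9.71 CPM to 49.0, 101, 48.0, 26.4 and 28.8 CPM, with TDD+ABX replicate 4 just under the highest CD+ABX mouse (log2 fold change 1.80, SE 0.45, adjusted p = 0.0479). Each of these 3 calls was close to the threshold. Igkv10-94 was not called in 7 of the 20 fits that left out 1 mouse, with values from -3.27 to -1.64 over the 20 (the latter without CD+ABX replicate 5), and Igkv15-103 was also not called in 7, most of them the same fits, with values from -2.77 to -2.32. Igkv1-117 was not called in 16, with values from 1.39 to 2.17. DESeq2 called 9 segments here and limma-voom called 0, while 20 had an unadjusted edgeR p under 0.05. The share over all genes is not given for these counts, so no excess is read from them.

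Under ABX on CD, 11 of 89 tested segments fell and 1 rose, against 1.69% of all genes that fell and 0.607% that rose. The median log2 fold change was -0.43 over the segments and -0.0048 over all genes. The groups did not overlap for 7 of the called segments, as for 1.61% of all genes, and for 5 of them without TMM factors (a scaling tried after the values were seen), where Igkv1-117 and Igkv15-103 overlapped. In the other comparisons these counts did not change. Igkv1-110 went from 72.7, 112, 58.5, 39.8 and 65.9 CPM in CD mice to 20.8, 14.8, 24.7, 12.7 and 28.3 CPM in CD+ABX mice (log2 fold change -1.78, SE 0.39, adjusted p = 0.00591), and its near copy Igkv1-117 from 28.2, 60.3, 60.4, 52.1 and 36.9 CPM to the values given above (-1.71, SE 0.45, adjusted p = 0.0176). The highest CD+ABX mouse was below the lowest CD mouse for Igkv1-110 with both scalings and for Igkv1-117 with TMM scaling alone. Igkv6-15 fell from 10.4, 14.9, 33.5, 15.3 and 12.5 CPM to 4.70, 4.20, 4.61, 2.47 and 3.19 CPM (log2 fold change -2.18, SE 0.43, adjusted p = 0.00293). Igkv3-2, which lies 27.4 kb from Igkc, fell from 2.79 to 9.04 CPM in CD mice to between 0.311 and 1.99 CPM (log2 fold change -2.57, SE 0.57, adjusted p = 0.00637).

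Igkv5-48, lower on TDD in SPF mice, was also lower under ABX on CD, at 4.50, 3.02, 3.21, 10.7 and 11.7 CPM (log2 fold change -1.72, SE 0.40, adjusted p = 0.00896). These comparisons share the CD mice. The same CD mice were the highest for Igkv4-61 and Igkv1-135, which were called lower under ABX with groups that overlapped through CD+ABX replicate 3 (5.67 CPM) for the former and CD+ABX replicate 5 (31.8 CPM) for the latter. The call of Igkv4-61 (-2.21, adjusted p = 0.0248) was lost without CD replicate 3 or CD+ABX replicate 1, 2 or 4, with values from -3.34 to -1.92 over the 20 fits. Igkv1-135 was just under the threshold (adjusted p = 0.0482) and was not called in 18 of 20 fits that left out 1 mouse, where its value lay between -2.45 and -1.26. Igkv4-70 had 7.71 CPM in CD replicate 4 and at most 1.19 CPM in the other CD mice, and its call was lost without that mouse and without each CD+ABX mouse, with values of -4.39 to -2.56 over the 20 fits. Igkv15-103 was the only segment that rose, from 1.96, 5.21, 3.63, 3.03 and 3.81 CPM in CD mice to the values given above for CD+ABX mice (log2 fold change 2.02, SE 0.56, adjusted p = 0.0234), and the call was lost without CD replicate 1 or 3 or CD+ABX replicate 4 (values of 1.77 to 2.22 over the 20 fits). Without the CD mice with high B cell markers and the other 5 such mice, 7 of the 12 segments were still called, among them Igkv1-110 (-1.55, adjusted p = 0.0127), Igkv6-15 (-1.74, adjusted p = 0.0120) and Igkv3-2 (-2.69, adjusted p = 0.00717). Igkv1-117 (-1.43, adjusted p = 0.0793) and Igkv5-48 (-1.45, adjusted p = 0.0696) were not.

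Under ABX on TDD, 18 of 89 tested segments fell and 0 rose, against 1.29% of all genes that fell and 0.374% that rose. Among the 18 were Igkv3-3, Igkv2-116 and Igkv20-101-2, which passed the filter through TDD mice alone, so a rise was hardly open to them. By DESeq2 24 segments were called and by limma-voom 9, and 37 had an unadjusted edgeR p under 0.05, again without a share over all genes. The median log2 fold change was -1.25 over the segments and -0.0275 over all genes, and 77 of 89 fitted values were below 0. For 5 called segments the groups did not overlap, as for 0.711% of all genes. Igkv3-3 fell by 6.35 on the log2 scale (SE 0.75, adjusted p = 0.000202), from the TDD levels given above to at most 0.10 CPM. Igkv2-112 went from 8.41, 41.2, 2.80, 3.06 and 25.1 CPM to 2.0, 0.721, 0.682, 0.179 and 1.03 CPM (log2 fold change -4.13, SE 1.03, adjusted p = 0.0129). Igkv5-43 went from 11, 13.9, 78.5, 22.4 and 29.2 CPM to 2.13, 1.20, 6.18, 6.05 and 5.89 CPM (log2 fold change -2.86, SE 0.63, adjusted p = 0.00648). In both cases the lowest TDD mouse was above the highest TDD+ABX mouse.

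Igkv4-72 and Igkv10-94 were the other segments without overlap. Igkv4-72 had 46.9 CPM in TDD replicate 5 and 2.95 to 4.29 CPM in the other TDD mice, against 0.311 to 2.67 CPM in TDD+ABX mice (log2 fold change -3.29, SE 0.85, adjusted p = 0.0153), and it was not called without TDD replicate 5 (-1.59). Igkv10-94 went from 3.84, 18.2, 11.8, 9.77 and 6.39 CPM to the TDD+ABX values given above (log2 fold change -2.57, SE 0.70, adjusted p = 0.0199) and was not called without TDD replicate 2 (-2.24) or TDD+ABX replicate 1 (-2.53). Without the 7 mice with high B cell markers, 4 segments were called, 2 of them among the 18, and the median over the segments was 0.91 in place of -1.25. Igkv3-3 kept its call in that fit (-6.74, adjusted p = 0.00623). That fit leaves 1 TDD mouse, replicate 1, the highest of all for Igkv3-3, so the kept call and the median of 0.91 rest on an arm of 1 mouse assumed to vary like the others. The direction of 5 called segments was reversed in it, Igkv6-25 (from -1.92 to 1.37), Igkv4-68 (from -2.66 to 1.23), Igkv14-130 (from -6.87 to 0.25), Igkv6-15 (from -1.28 to 0.14) and Igkv4-59 (from -1.88 to 0.04). With the B cell marker level as a covariate 8 were called, 7 of them among the 18.

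**Figure D4:**
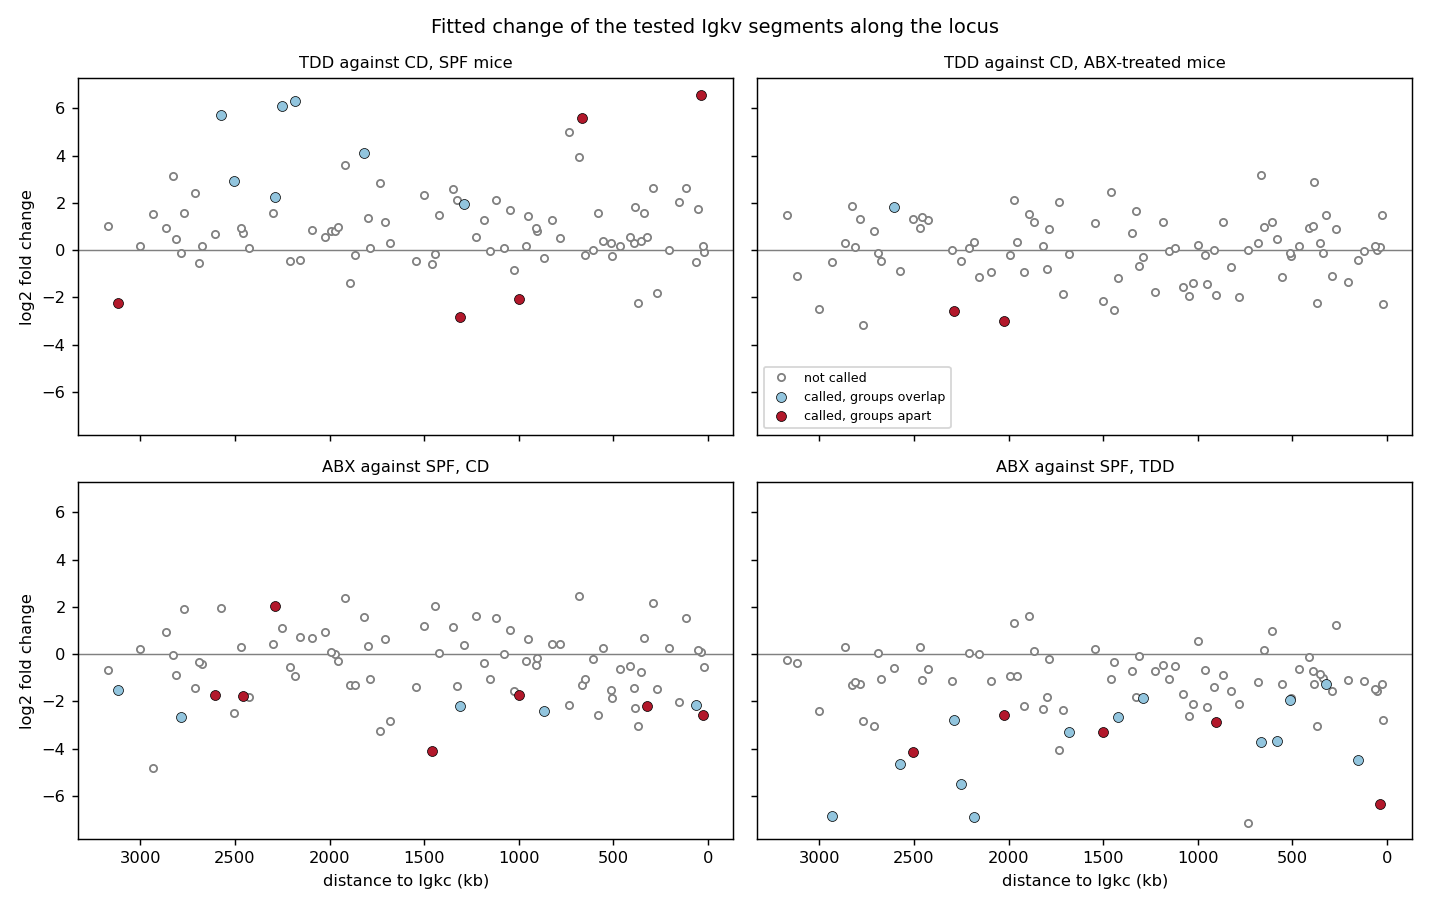
Fitted log2 fold change of the 89 tested Igkv segments in each of 4 comparisons, by distance to Igkc in kb. Open points were not called, blue points were called with groups that overlap and red points were called with groups that do not with TMM scaling, and on TDD 18 called points of the ABX comparison lie below 0 from 38.9 kb outward.

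The effect of the diet differed between SPF and antibiotic-treated mice for 1 of 89 tested segments, Igkv15-103, against 0.0245% of all genes. In SPF mice its level was higher on TDD (log2 fold change 2.23) and lower on TDD in antibiotic-treated mice (-2.57), a difference of -4.80 (SE 0.81, adjusted p = 0.0433). Igkv15-103, at chr6:68437440-68437925, was thus highest in TDD and CD+ABX mice and lowest in CD and TDD+ABX mice, with CD and TDD overlapping through TDD replicate 1 (2.76 CPM). It shared none of its 345 stretches of 31 bases with another gene. The call was lost in 13 of 20 fits that left out 1 mouse, where the difference lay between -5.07 and -3.93, and without the 7 mice with high B cell markers (-2.50, adjusted p = 0.208). With the B cell marker level as a covariate it was kept (adjusted p = 0.0344). DESeq2 called 6 segments and limma-voom 0 in this comparison, and 20 had an unadjusted edgeR p under 0.05, also without a share over all genes.

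Some segments were held almost by a single mouse. In 7 of 89 tested segments the highest mouse had at least 5 times the level of the next highest, as in 0.282% of all genes tested. These 7, chosen after their values were seen, were Igkv1-99, Igkv20-101-2, Igkv18-36, Igkv4-81, Igkv14-130, Igkv3-10 and Igkv4-69. The filter kept any gene that reached 0.5 CPM in 1 mouse. Igkv20-101-2, Igkv18-36, Igkv4-81 and Igkv4-69 passed it through their highest mouse alone, with at most 0.239 CPM in the next. Their place among the 7 thus rests in part on the filter, which was the same for all genes. The highest mouse was TDD replicate 3 for 3 of them, TDD replicate 2 for 2, and TDD replicate 1 and CD+ABX replicate 5 for 1 each. Igkv1-99 was 145 times as high in TDD replicate 2 as in the next mouse. Igkv18-36 had 1.91 CPM in TDD replicate 1, at least 23.1-fold above the next mouse, whose level was taken as the floor of 3 counts. Igkv3-10 had 41.1 CPM in TDD replicate 3 and at most 4.39 CPM elsewhere. Igkv14-130 had 21.0 CPM in TDD replicate 2, 0.661 to 2.20 CPM in all 5 CD mice, and at most 0.189 CPM in every other mouse.

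The make-up of the repertoire was compared between mice as the overlap of their shares, the sum over all segments of the smaller of both shares. Mice of the CD group were the most alike, with 64.3% to 79.3% over their 10 pairs (mean 70.8%). The mean was 61.1% within TDD, 55.7% within CD+ABX and 61.6% within TDD+ABX. Between groups it ranged from 52.3% for CD+ABX with TDD+ABX to 62.1% for CD with TDD+ABX. Pairs share mice, so these means carry no test. The overlap of TDD mice with CD mice (mean 61.4%) was thus no lower than that of TDD mice with each other.

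By position, the Igkv genes lay 22.3 to 3170 kb upstream of Igkc on chromosome 6, 75 on the strand of Igkc and 85 on the other, on which joining to a J segment needs an inversion. Segments on the other strand, 62 of the 100 functional ones, held 24.6% to 65.6% of the counts. In CD+ABX mice their share was 56.4% to 65.6%, above every CD mouse (47.1% to 52.9%), and it varied widely in TDD (29.8% to 59.4%) and TDD+ABX (24.6% to 57.0%). Segments within 1000 kb of Igkc, 40 of the functional ones, held 17.1% to 43.4%. Called segments lay on both strands: under ABX on TDD, 9 of 34 tested segments on the strand of Igkc and 9 of 55 on the other fell.

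Sequence likeness limits how well the segments can be told apart. Among the 89 tested segments, a median of 52.0% of the stretches of 31 bases, the length kallisto uses to assign reads, occurred in no other gene of the transcript set, and this was under 50% for 40 segments. For 5 segments it was 100%, among them Igkv5-48 and Igkv15-103. It was 36.4% for Igkv1-110, 37.4% for Igkv1-117, 46.5% for Igkv3-3, 92.6% for Igkv7-33, 42.3% for Igkv1-135, 30.7% for Igkv4-61, 33.4% for Igkv10-94 and 13.0% for Igkv4-59. Reads of near copies are divided by estimation, so single values of Igkv4-59, Igkv4-61 and the family 1 pair are less certain than those of Igkv5-48, Igkv7-33 or Igkv15-103. Expressed V segments also carry somatic mutations, and how many such reads failed to match the germline sequences was not given in the sources used here.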

How the data were processed

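Poly-A RNA of the ileum was sequenced from 20 mice, 5 separate mice in each of 4 groups, and groups were taken from the sample labels. The authors assigned reads to transcripts with kallisto 0.44.0 (build GRCm38, per the submitters' processing notes) and deposited estimated counts per gene, which were rounded to whole numbers here, and TPM per transcript, which were summed over the transcripts of a segment. Total counts were 36676963 to 58662617 per mouse, and segments with few counts are the least precise. The test used by the study is not named in the sources used here.

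Of 35204 genes, the 16306 that reached 0.5 CPM in 1 or more mice were scaled by TMM and fitted over all 20 mice with 4 group means by edgeR 4.0.16 (quasi-likelihood test, 2-sided, Benjamini-Hochberg adjustment over all genes tested). A gene was called when its adjusted p was below 0.05 and its level differed 2-fold or more. DESeq2 1.42.0 and limma-voom (limma 3.58.1) in R 4.3.3 served as alternatives, beside other scalings and filters, a replicate block and leaving out each mouse. Leaving out the 7 mice with a B cell marker sum of at least 50 CPM and a B cell marker covariate were added after the values were seen. Sums, numbers and shares were computed in Python 3.11.15 with pandas 2.3.3 and were given no test. The scripts were tested on simulated data.

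Segments were placed by GENCODE M21, which held all 160. Of 113193 deposited transcripts 109294 were found in the reference transcripts, from which stretches of 31 bases were compared. Samples of the same replicate number were checked for deviations that move together. Their correlations were -0.417 to 0.289 and not all over 0.1, so the numbers were not taken to pair the mice. Segments were named when they were the largest of a mouse, among the 10 with the highest mean CPM, or among up to 6 called segments per comparison with the largest change and groups that did not overlap, and others are named where a count is small. 1 gene of the B cell list is not reported here and was left out of its sums. The segments and gene lists were chosen with earlier results of these data known.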

Additional observations from a re-analysis of the deposited data

Results flagged for a closer look

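In 100 groups of 5 values (the named segments and the measures per mouse), 19 held a mouse whose gap to the nearest other mouse exceeded 0.71 of the whole range. That limit is passed by about 1 in 20 groups of independent, normally distributed values. CPM values are skewed and most of the segments were named from these same values, so the 19 cannot be set against that rate. In CD mice the flagged values were Igkv4-70 in replicate 4 (gap 0.881 of the range) and Igkv6-15 in replicate 3 (0.789). In TDD mice replicate 1 was far below the others for Igkc (0.727). Replicate 2 was far above for Igkv1-110 (0.759), replicate 3 for Igkv5-43 (0.730), replicate 4 for Igkv14-111 (0.803) and replicate 5 for Igkv4-70 (0.931) and Igkv4-72 (0.970).

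In CD+ABX mice replicate 4 stood above the others for the share of the largest segment (0.751), replicate 5 for Igkv1-135 (0.736) and Igkv10-94 (0.870), replicate 3 for Igkv3-3 (0.805) and Igkv4-61 (0.764), and replicate 2 for Igkv8-30 (0.779). In TDD+ABX mice replicate 1 stood above the others for Igkv10-96 (0.741) and Igkv8-30 (0.917), replicate 3 for Igkv6-15 (0.808) and Igkv7-33 (0.908), and replicate 4 for Igkv4-70 (0.931). The diet effect on Igkv15-103 differed between antibiotic-treated and SPF mice by -4.80 on the log2 scale, as tested by the interaction term.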

How the results depend on the processing

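Leaving out the 7 mice with a B cell marker sum of at least 50 CPM, which leaves 1 TDD mouse, assumed to vary like the others, moved the number of called segments from 12 to 5 for TDD against CD in SPF mice, from 18 to 4 for ABX on TDD and from 1 to 0 for the interaction. It also moved the ratio of summed levels to 0.683 (TDD against CD) and 1.27 (ABX on TDD), Igkc to -0.53 (ABX on CD) and -0.21 (ABX on TDD) and the mean number seen in TDD to 93, and it reversed Igkv15-103 on TDD in SPF mice (-0.092) and Igkv4-59 (0.036) and Igkv6-15 (0.14) under ABX on TDD. The B cell covariate gave 7 calls for TDD against CD in SPF mice, 7 for ABX on CD and 8 for ABX on TDD, with Igkc at -0.50 for ABX on CD. For TDD in antibiotic-treated mice (3 calls), 1 was called with both groups fitted alone, 9 by DESeq2 and 0 by limma-voom, which called 9 for ABX on TDD. The interaction (1 call) gave 0 with RLE scaling, without a filter, with the filter in 5 mice and by limma-voom, and 6 by DESeq2. The replicate block gave 8, 0, 12 and 15 calls for the diet comparisons in SPF and antibiotic-treated mice and for ABX on CD and on TDD, and 0 for the interaction. Calls over the fits that left out 1 mouse were 9 (without CD replicate 4) to 17 (without TDD replicate 1), 0 (without CD+ABX replicate 4) to 4 (without TDD replicate 1), 6 (without CD+ABX replicate 4) to 17 (without TDD replicate 1), 11 (without TDD+ABX replicate 1) to 25 (without TDD replicate 1) and 0 to 1, in the same order. In those fits the log2 fold change of Igkc was 0.42 to 0.65 for TDD against CD in SPF mice and -0.83 to -0.59 for ABX on CD. The cause of these changes was not tested, and shares over all genes are not given for the alternative settings. With a limit of 10 counts, 69.8, 74.6, 61.8 and 65.6 segments were seen in CD, TDD, CD+ABX and TDD+ABX, with 0.5 CPM 60.8, 66.8, 52.0 and 56.4, and after thinning 88.75 in CD, 90.78 in TDD and 86.38 in TDD+ABX. The largest family in place of the largest segment held 32.75%, 30.64%, 20.31% and 31.34%. Setting aside Igkv genes whose count was not the sum of their transcripts could not be run as an alternative, since all 160 matched within 1 count. Segments near the floor of 3 counts, and near copies, are limited most by depth and read assignment.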
